A study of Mus musculus with 6 samples.

Results

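The genes described here are the interleukin 1 (IL-1) axis and its inflammasome. They are the ligands Il1a, Il1b and Il18, the antagonists Il1rn, Il18bp and the decoy receptor Il1r2, the receptor chains Il1r1 and Il1rap, and the inflammasome pair Nlrp3 and Casp1. They were chosen by name, each symbol matched 1 Ensembl gene, and the 10 genes stand among 55487 listed. All 10 passed the filter on low counts. The samples are tumour-associated macrophages from C57BL/6 mice that carried Lewis lung carcinoma, a transplantable mouse lung cancer line, under the skin of the flank for 15 to 17 days. Cells positive for CD11b and F4/80 and negative for Ly6C and Ly-6G were divided by surface MHC class II, which gave 3 libraries labelled MHC-IIhigh and 3 labelled MHC-IIlow. Replicates 1, 2 and 3 of each label carry batch numbers 1, 2 and 3. Neither the age and sex of the mice nor whether each library had mice of its own is given in the labels, so a p-value here reflects library-to-library spread that may be technical.

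IL-1 alpha and IL-1 beta act through the same receptor, in which IL1R1 binds the ligand and IL1RAP joins it to signal through MyD88 and the IRAK kinases. The axis is held in check at several steps: IL1RN occupies the receptor without signalling, IL1R2 binds the ligand but has no signalling domain, and IL18BP captures IL-18. IL-1 beta and IL-18 are made as inactive precursors, which caspase-1 cuts once a sensor such as NLRP3 has assembled an inflammasome. Macrophages and monocytes are major sources of IL-1 beta, and in tumours this cytokine is studied for its part in inflammation and in the recruitment of myeloid cells.

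Reads in genes ranged over 15159356 to 25473051 in the libraries labelled MHC-IIhigh and over 10202879 to 21290781 in those labelled MHC-IIlow. Labelled MHC-IIlow replicate 3 was the smallest, and an rRNA copy took 47.3% of its reads in genes, against 3.85% to 13.5% in the other 5. Transcripts of MHC class II went against the labels: the summed level of Cd74, H2-Eb1, H2-Ab1 and H2-Aa was 60.01 to 67.95 CPM (counts divided by TMM-scaled library size) in the libraries labelled MHC-IIhigh and 4386 to 8777 CPM in those labelled MHC-IIlow. Every direction below is therefore that of the libraries as labelled. Among macrophage markers, 12 of 12 were tested and none was at 0 reads over a label, with sums of 10774 to 13234 CPM with the high label and 7636 to 14496 CPM with the low label. Of them 0 were called by edgeR, while without labelled MHC-IIlow replicate 2 it called 2 higher and 3 lower. Over all genes that fit called 246 higher and 784 lower. At an unadjusted p under 0.05 edgeR gave 2 higher and 1 lower, against 4.06% higher and 7.99% lower of all tested genes. DESeq2 called 2 higher, against 0.856%. The limma-voom fit with sample quality weights called 2 higher and 7 lower, against 20.4% higher and 22.7% lower. These are bulk libraries, so that fewer cells of a type and less RNA per cell cannot be told apart.

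Il1b and Il1r2 were lower in the libraries labelled MHC-IIhigh, and the other 8 genes did not pass the test. Il1b, the main secreted ligand, was 3.08-fold lower, and Il1r2, the decoy receptor, was 12.2-fold lower. The test was edgeR's quasi-likelihood test with Benjamini-Hochberg adjustment over 14140 genes and a threshold of 0.05. It called 2 of the 10 genes lower and 0 higher, and of all tested genes 0.354% lower and 0.0919% higher, 0.446% in all. At an unadjusted p under 0.05 edgeR gave 4 of the 10 lower and 1 higher, against 7.99% lower and 4.06% higher, or 12.1%, of all tested genes, and the same shares stand behind each unadjusted count below. DESeq2 called 2 lower and 0 higher, and limma-voom with sample quality weights called 5 lower and 3 higher. The share of all tested genes called by DESeq2 was 1.96% lower and 0.856% higher, 2.81% in all, and by limma-voom with those weights 22.7% lower and 20.4% higher, 43.1% in all. These shares stand behind each DESeq2 and limma-voom count below. With the GC offset, explained at Il1a, 3 of the 10 were lower and 0 higher, against 1.74% lower and 0.955% higher, or 2.69%, of all tested genes. With that offset and the batch block 3 of the 10 were again lower and 0 higher, and of all tested genes 2.77% lower and 1.41% higher, or 4.18%. With the block alone 1 of the 10 was lower and 0 higher, against 0.283% lower and 0.00707% higher, or 0.29%. The median log2 fold change was -0.48 over the 10 genes and -0.02 over all tested genes. The levels of the 2 labels did not overlap for 5 of the 10 genes, with 3 below and 2 above, and for 19.9% of all tested genes, with 9.48% below and 10.5% above.

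**Figure D1:**
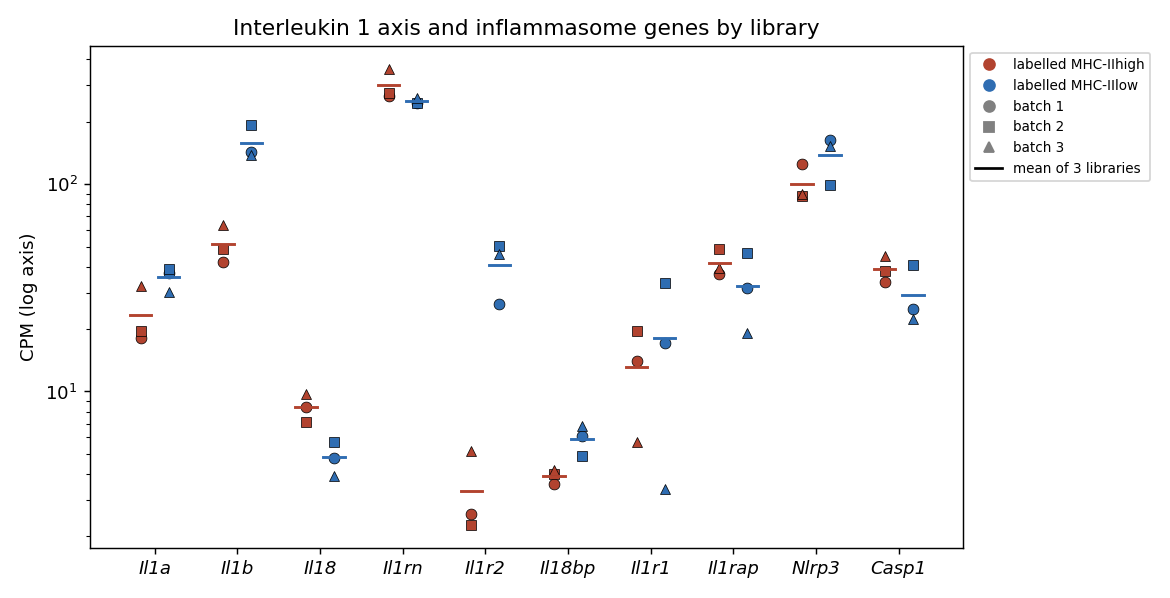
Level of each gene in CPM on a log axis, with the 3 libraries labelled MHC-IIhigh in red on the left and the 3 labelled MHC-IIlow in blue on the right of each gene, symbols for the batch and a line at the mean. Il1r2 lies between 2.27 and 5.15 CPM in the libraries labelled MHC-IIhigh and between 26.4 and 50.1 CPM in those labelled MHC-IIlow, while Il1r1 spreads widely within both labels.

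Among the ligands, Il1b (ENSMUSG00000027398; GRCm38 chromosome 2, 129364570 to 129371139, minus strand) stood at 42.0, 48.65 and 63.5 CPM in replicates 1, 2 and 3 labelled MHC-IIhigh and at 144, 193 and 138 CPM in those labelled MHC-IIlow. The highest library labelled MHC-IIhigh lay at less than the lowest labelled MHC-IIlow. The log2 fold change was -1.62 with an standard error (SE) of 0.23, a 95% interval of -2.14 to -1.10 and an edgeR adjusted p of 0.0311. Within batches 1, 2 and 3 the log2 ratio of Il1b was -1.78, -1.99 and -1.12. With the batch as a block the adjusted p was 0.0742 by edgeR, and it was 0.0891 to 0.25 by edgeR without any single library labelled MHC-IIhigh or without labelled MHC-IIlow replicate 1. It was 0.00986 by edgeR without labelled MHC-IIlow replicate 2 and 0.0237 without replicate 3.

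Il1a, the ligand that also acts from within or on the surface of the cell, lies next to Il1b on the same strand of chromosome 2 (ENSMUSG00000027399; 129299610 to 129309972). Its CPM values were 18.1, 19.6 and 32.2 in the libraries labelled MHC-IIhigh and 37.3, 39.0 and 30.2 in those labelled MHC-IIlow. The labels overlapped in batch 3, where the log2 ratio was 0.09, against -1.04 and -0.99 in batches 1 and 2. The log2 fold change of -0.61 did not pass the test (SE 0.26, adjusted p 0.408 by edgeR). Antisense transcripts overlap 222 exonic bases of Il1a (Gm14023, 2 to 8 reads a library) and 25 of Il1b (Il1bos, 2 to 22 reads). After each library's trend over the GC content of genes was removed, the estimate for Il1a was -0.92 with an edgeR adjusted p of 0.0373, and -0.96 with 0.00787 when the batch block was added.

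The proximal promoters of Il1a and Il1b are shown because these ligand genes are neighbours on the same strand. The part of these sequences in the levels of either gene was not tested. Each window holds the 250 bases before the RefSeq start on GRCm38.p6, minus strand, and capitals mark motif matches on either strand.
Il1a (chr2:129309973-129310222): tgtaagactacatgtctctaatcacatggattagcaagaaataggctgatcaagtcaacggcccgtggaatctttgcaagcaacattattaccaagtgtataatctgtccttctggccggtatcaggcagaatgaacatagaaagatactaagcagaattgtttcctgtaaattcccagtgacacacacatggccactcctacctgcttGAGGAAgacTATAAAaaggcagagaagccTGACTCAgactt
Il1b (chr2:129371140-129371389): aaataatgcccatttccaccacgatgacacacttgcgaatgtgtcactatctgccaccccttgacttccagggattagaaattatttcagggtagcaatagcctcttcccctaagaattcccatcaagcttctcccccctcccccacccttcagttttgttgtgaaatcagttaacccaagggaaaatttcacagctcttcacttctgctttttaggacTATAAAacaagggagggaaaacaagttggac
The TATA box letters TATAAA stood 32 to 27 bases before the start of Il1a and 31 to 26 bases before that of Il1b, and were present in 12.4% of 32851 promoter windows. Il1a also held GAGGAA, the PU.1 core (23.3% of windows), and TGANTCA, the AP-1 letters (6.75%), with no match overlapping another. Il1b held none of the other letters searched, which were those of NF-kB (GGGA, any 4 bases, CC; 17.6%), TTGCNNAA for C/EBP (9.56%), TGACGTCA for CRE (1.55%), CACGTG for the E-box (6.02%), TTCNNNGAA for GAS (7.02%) and those of ISRE (GAAA, any 2 bases, GAAA; 2.98%).

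Il18, the ligand that drives interferon gamma production by lymphocytes, was measured at a low level. It stood at 8.46, 7.13 and 9.725 CPM in the libraries labelled MHC-IIhigh and at 4.80, 5.72 and 3.93 CPM in those labelled MHC-IIlow. All libraries labelled MHC-IIhigh lay above all labelled MHC-IIlow, with log2 ratios of 0.82, 0.32 and 1.31 within batches. The log2 fold change of 0.79 did not pass the test (SE 0.25, 95% interval 0.21 to 1.37, adjusted p 0.314 by edgeR). The counts behind it were 584 reads in total with the high label and 252 with the low label, of which labelled MHC-IIlow replicate 3 gave 22.

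Among the antagonists, Il1rn, which encodes the receptor antagonist, was the most abundant of the 10 genes by CPM in every library. It stood at 267, 276 and 361 CPM in the libraries labelled MHC-IIhigh and at 247, 247 and 262 CPM in those labelled MHC-IIlow. The libraries labelled MHC-IIhigh all lay above the others, but by little: the log2 fold change was 0.26 with an SE of 0.18 and an edgeR adjusted p of 0.516. With the GC offset the estimate for Il1rn was -0.08 with an edgeR adjusted p of 0.872, so its direction depends on that step.

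Il1r2, the decoy receptor, had the largest difference of the 10. The gene (ENSMUSG00000026073) spans 40074079 to 40125231 on the plus strand of chromosome 1. It stood at 2.56, 2.27 and 5.15 CPM in the libraries labelled MHC-IIhigh and at 26.4, 50.1 and 46.2 CPM in those labelled MHC-IIlow. The labels were far apart, with 241 reads in total with the high label and 1981 with the low label. The log2 fold change was -3.60 with an SE of 0.40, a 95% interval of -4.52 to -2.68 and an edgeR adjusted p of 0.0155. Within batches 1, 2 and 3 the log2 ratio of Il1r2 was -3.37, -4.46 and -3.17. With the batch block its adjusted p was 0.0102 by edgeR. Without labelled MHC-IIhigh replicate 1 it was 0.0817 and without labelled MHC-IIhigh replicate 2 it was 0.0975 by edgeR, while the fold change stayed between -4.08 and -3.37 over the 6 fits that left out a library. The annotation gives Il1r2 a coding length of 410 codons, against 576 for Il1r1, its signalling neighbour on chromosome 1.

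A window before a RefSeq start of Il1r2 is shown because this gene parted the labels most. It is cut at 142 bases, where an annotated transcript begins, and capitals mark CACGTG, the E-box letters.
Il1r2 (chr1:40085843-40085984, plus strand): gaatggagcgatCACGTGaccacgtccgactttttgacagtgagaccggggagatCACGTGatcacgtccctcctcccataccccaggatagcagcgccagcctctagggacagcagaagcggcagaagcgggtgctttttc
The E-box letters were added to the search after this sequence was seen. CACGTG occurred 2 times, at 238 to 233 and 195 to 190 bases before that start, and among the windows of the other 9 genes only that of Casp1 held it. The full 250 bases also held TTCAAGGAA, a match to the GAS letters at 111 to 103 bases, which runs past the end of the stretch shown. GENCODE M21 gives Il1r2 4 transcripts, some of which start elsewhere, and the counts do not tell which start was used.

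Some markers of dendritic cells, in which IL-1 family genes are also expressed, were lower with the high label, as Il1b and Il1r2 were. Of 12 dendritic cell markers 8 were tested and 4 were called lower by edgeR, namely Ccl22, Ccr7, Flt3 and Itgax, against 0.354% of all tested genes. Cd209a, Batf3, Zbtb46 and Fscn1 did not pass. All 8 were lower at an unadjusted p under 0.05, DESeq2 called 5 lower and limma-voom with sample quality weights 8 lower. The filter on low counts keeps a gene that is expressed under 1 label only. A marker near 0 with the high label can therefore be tested through the low label alone. The number of tested markers that were lower can thus be partly set by the filter. Without labelled MHC-IIhigh replicate 2 edgeR called 1 (Ccl22). Without labelled MHC-IIhigh replicate 1 or labelled MHC-IIlow replicate 1 it called 2 (Ccl22 and Ccr7). Over all genes these fits called 8 to 14 lower. Without labelled MHC-IIlow replicate 3, Dpp4, Itgae, Xcr1 and Clec9a passed the filter as well. That fit called 7 of the 12 lower, Dpp4 and Itgae among them, against 55 lower over all genes. The summed level of the 12 was 50.6 to 91.4 CPM in the libraries labelled MHC-IIhigh and 283 to 422 CPM in those labelled MHC-IIlow, and none of them was at 0 reads over a label. Ccr2, a monocyte chemokine receptor, had 160, 229 and 246 CPM with the high label and 515, 763 and 286 CPM with the low label (adjusted p 0.219 by edgeR, and 0.0379 without labelled MHC-IIlow replicate 3), within 8 monocyte markers whose sum was 607 to 680 CPM with the high label and 481 to 1121 CPM with the low label. None of the 6 tested monocyte markers was called by edgeR, 2 were lower at an unadjusted p under 0.05, DESeq2 called 1 lower and limma-voom with sample quality weights 3 lower. At lower levels, the sum of 7 B cell markers also parted the labels, at 2.23 to 2.90 CPM with the high label and 7.28 to 14.8 CPM with the low label. So did that of 10 T and NK cell markers, at 0.723 to 1.57 CPM with the high label and 2.53 to 2.77 CPM with the low label. Of the B cell markers 2 were tested and of the T and NK cell markers 1, and 0 of both lists were called by edgeR. Among B cell markers 2 were lower at an unadjusted p under 0.05, DESeq2 called 1 lower and limma-voom with sample quality weights 2 lower. With the GC offset edgeR called 1 lower (Ighm), as it did without labelled MHC-IIlow replicate 2. Among T and NK cell markers 0 had an unadjusted p under 0.05, DESeq2 called 0 and limma-voom with those weights 1 lower. The part of these cell types in the differences of Il1b and Il1r2 was not tested.

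Neutrophils also carry both transcripts, and the sort was for Ly-6G negative cells. How fully it removed neutrophils was not tested. The summed level of 12 neutrophil markers was 17.8 to 28.4 CPM in the libraries labelled MHC-IIhigh and 17.2 to 35.3 CPM in those labelled MHC-IIlow. Ly6g and Camp had 0 reads in all 6 libraries, which sets them under 3 reads a library for counting error only. Of the 4 tested neutrophil markers 0 were called by edgeR, 1 higher and 1 lower had an unadjusted p under 0.05, DESeq2 called 0, and limma-voom with sample quality weights called 2 higher and 1 lower. Without labelled MHC-IIlow replicate 2 edgeR called 1 higher (S100a8) and 1 lower (Csf3r), against 246 higher and 784 lower over all genes. The part of neutrophils in the results was not tested.

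Il18bp, the soluble inhibitor of IL-18, was the gene of the 10 with the lowest level per length. It stood at 3.56, 4.01 and 4.18 CPM in the libraries labelled MHC-IIhigh and at 6.07, 4.87 and 6.78 CPM in those labelled MHC-IIlow, with 271 reads in total under each label. The labels did not overlap, yet the log2 fold change of -0.58 did not pass the test (SE 0.25, adjusted p 0.413 by edgeR). The trend over GC content that the offset removed came to 0.30 for Il1rn and -0.02 for Il18bp (log2, high minus low label). The exons of Il18bp overlap those of Numa1, on the other strand, over 80 bases, or 2.64% of their length. Numa1 had 937 to 1764 reads a library, and since the strand setting of the counting is not given, a part of those reads in Il18bp cannot be told apart.

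**Figure D2:**
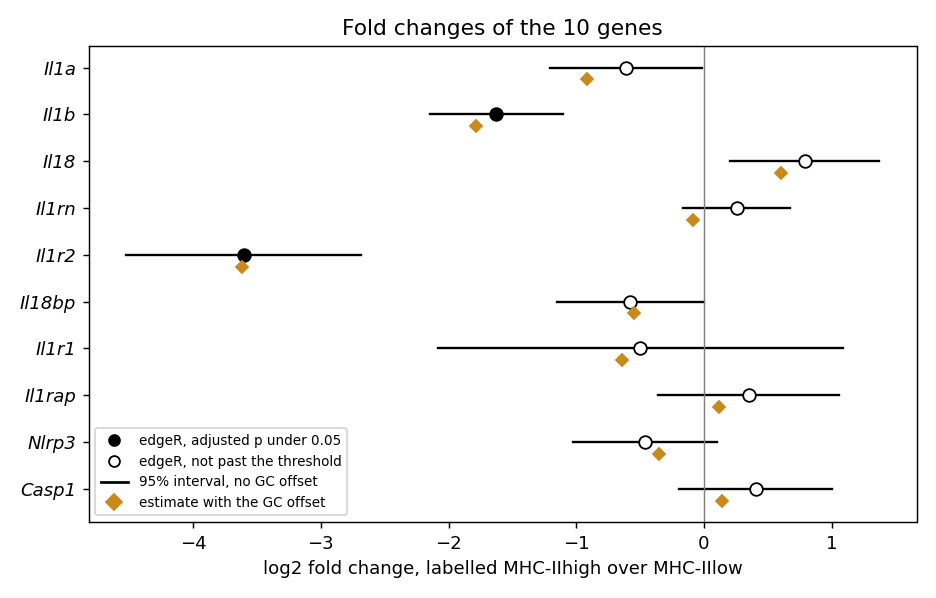
Log2 fold change of each gene, labelled MHC-IIhigh over MHC-IIlow, by edgeR with its 95% interval (circles, filled where the adjusted p was under 0.05) and with the GC offset (diamonds). The intervals of Il1b and Il1r2 lie far below 0, and the diamond of Il1rn lies on the other side of 0 from its circle. The intervals are not adjusted for the number of genes tested. Those of Il1a (-1.20 to -0.01), Il18bp (-1.15 to -0.003) and Il18 (0.21 to 1.37) also exclude 0, though these genes did not pass the test.

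The receptor chains varied within both labels, and neither passed the test. Il1r1, the ligand-binding chain, stood at 14.1, 19.6 and 5.685 CPM in the libraries labelled MHC-IIhigh and at 17.2, 33.5 and 3.39 CPM in those labelled MHC-IIlow. In both labels batch 2 was the highest and batch 3 the lowest, and labelled MHC-IIlow replicate 3 had 19 reads. The log2 fold change was -0.50 with an SE of 0.69, a 95% interval of -2.08 to 1.09 and an edgeR adjusted p of 0.713, so that the data leave its direction unsettled. Without labelled MHC-IIlow replicate 2 the estimate was 0.28.

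Il1rap, the shared accessory chain, stood at 36.7, 48.8 and 39.5 CPM in the libraries labelled MHC-IIhigh and at 31.5, 46.7 and 19.1 CPM in those labelled MHC-IIlow. The labels overlapped, and the log2 fold change of 0.35 did not pass the test (SE 0.31, adjusted p 0.582 by edgeR). Without labelled MHC-IIlow replicate 3, the lowest library, the estimate was 0.09.

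The receptor genes form a cluster on chromosome 1, in the order Il1r2, Il1r1, Il1rl2, Il1rl1, Il18r1 and Il18rap (GRCm38), which starts at 40074079 and ends at 40551705. Il1rl1, the receptor of interleukin 33, stood at 12.1, 26.6 and 5.65 CPM with the high label and at 16.8, 35.3 and 2.86 CPM with the low label. Il18rap, the accessory chain of the IL-18 receptor, stood at 10.4, 20.9 and 7.72 CPM with the high label and at 14.0, 34.1 and 4.64 CPM with the low label. As for Il1r1, batch 2 was the highest and batch 3 the lowest in both labels. Il18r1, the chain that binds IL-18, had 2 reads in total with the high label and 6 with the low label and was too low to test. Il1rl2, the interleukin 36 receptor, stood at 3.13 ± 1.34 CPM with the high label and 4.79 ± 0.49 CPM with the low label (SD, n = 3 each) with an edgeR adjusted p of 0.49. Of the 5 genes of the cluster that were tested, Il1r2 was the only 1 called by edgeR, and the differences between its fold change and those of the others were not tested except against Il1r1, as a ratio. Map4k4, the next protein-coding gene before Il1r2, stood at 230 ± 18 CPM with the high label and 255 ± 23 CPM with the low label (adjusted p 0.655 by edgeR).

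Fibroblast markers, like Il1r1, were lowest in batch 3 of both labels. The summed level of 9 fibroblast markers was 411, 408 and 73.2 CPM in replicates 1, 2 and 3 labelled MHC-IIhigh and 512, 600 and 131 CPM in those labelled MHC-IIlow, with batch 2 highest only among the libraries labelled MHC-IIlow. Most of it came from Col3a1, at 307, 293 and 52.5 CPM with the high label and 398, 457 and 108 CPM with the low label. None of the 9 was at 0 reads under either label, and Thy1 was too low to test. Of the 8 tested 0 were called by edgeR, 1 was lower at an unadjusted p under 0.05, DESeq2 called 0, and limma-voom with sample quality weights called 2 lower. The summed level of 6 epithelial markers was lower, at 7.40, 12.1 and 3.15 CPM with the high label and 8.37, 11.0 and 3.57 CPM with the low label. For them batch 2 was the highest and batch 3 the lowest in both labels, as for Il1r1. Of the 2 epithelial markers tested 0 were called by edgeR. The part of fibroblasts or epithelial cells in the levels of Il1r1, Il1rl1 and Il18rap was not tested.

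**Figure D3:**
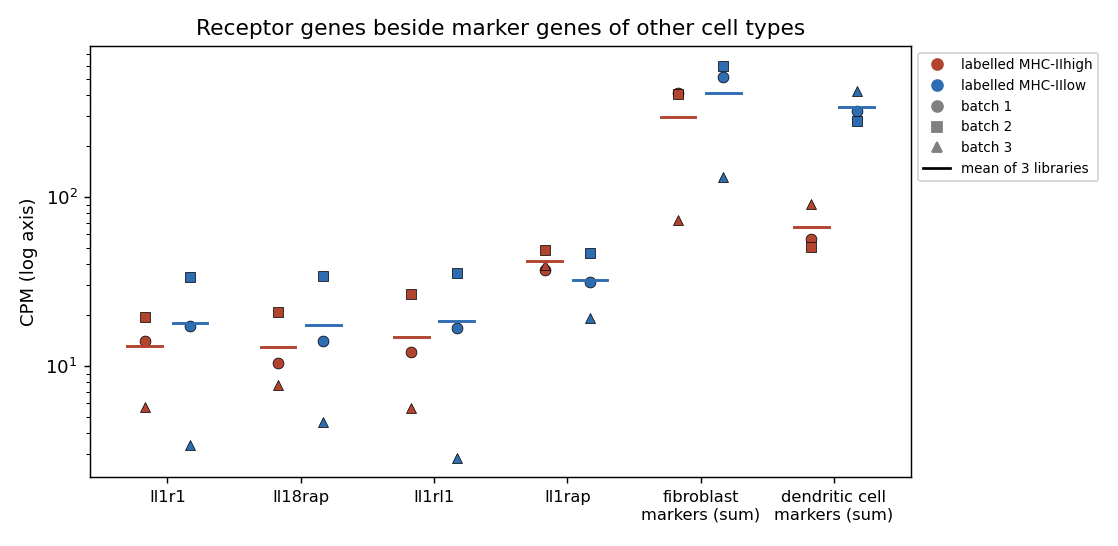
Levels of 4 receptor genes beside the summed levels of fibroblast and dendritic cell markers, in CPM on a log axis, with the libraries labelled MHC-IIhigh in red on the left, those labelled MHC-IIlow in blue on the right, and symbols for the batch. For Il1r1, Il18rap, Il1rl1 and the fibroblast markers the batch 3 libraries are the lowest of each label, while the dendritic cell markers part the labels.

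Neither gene of the inflammasome pair passed the test. Nlrp3, the sensor, stood at 125, 87.9 and 89.6 CPM in the libraries labelled MHC-IIhigh and at 164, 99.3 and 154 CPM in those labelled MHC-IIlow. Labelled MHC-IIlow replicate 2 lay within the range of the other label. The log2 fold change was -0.46 with an SE of 0.25 and an edgeR adjusted p of 0.451, and all 3 within-batch log2 ratios, -0.39, -0.18 and -0.78, were negative.

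Casp1, the protease, stood at 33.7, 38.2 and 45.3 CPM in the libraries labelled MHC-IIhigh and at 25.0, 40.8 and 22.3 CPM in those labelled MHC-IIlow. The labels overlapped through labelled MHC-IIlow replicate 2, and the log2 fold change of 0.40 did not pass the test (SE 0.26, 95% interval -0.20 to 1.01, adjusted p 0.498 by edgeR). Casp4, the neighbouring gene for the caspase that senses intracellular lipopolysaccharide, stood at 40.7 ± 4.1 CPM with the high label and 33.9 ± 6.7 CPM with the low label (SD, n = 3 each) with an edgeR adjusted p of 0.547.

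Set on one scale by dividing CPM by the kilobases of annotated exons, the genes could be ordered by level. In the libraries labelled MHC-IIhigh Il1rn was highest at 54.4 ± 9.4 CPM per kilobase, followed by Il1b at 26.9 ± 5.8, Casp1 at 26.1 ± 3.9 and Nlrp3 at 24.8 ± 5.2 CPM per kilobase (SD, n = 3), a group of 3 that did not differ beyond its spread. In the libraries labelled MHC-IIlow Il1b was highest at 83.1 ± 15.8 CPM per kilobase, before Il1rn at 45.5 ± 1.6 and Nlrp3 at 34.3 ± 8.6 CPM per kilobase. Il1r2 was 9th of the 10 with the high label, at 1.74 ± 0.83 CPM per kilobase, and 4th with the low label, at 21.4 ± 6.7 CPM per kilobase, where it did not differ beyond the spread from Casp1 at 19.6 ± 6.7 and Il1a at 18.0 ± 2.4 CPM per kilobase. Il1a followed at 11.8 ± 3.9 CPM per kilobase with the high label. The lower places held Il18 at 8.18 ± 1.26 with the high label and 4.67 ± 0.87 CPM per kilobase with the low label, then Il1rap at 3.67 ± 0.56 with the high label and 2.86 ± 1.22 CPM per kilobase with the low label. Il1r1 stood at 2.06 ± 1.10 with the high label and 2.83 ± 2.37 CPM per kilobase with the low label, which did not differ beyond the spread from Il1rap with the low label or from Il1r2 with the high label. Il18bp was last under both labels, at 1.29 ± 0.11 with the high label and 1.95 ± 0.32 CPM per kilobase with the low label. Exon lengths are unions over all transcripts, 11360 bases for Il1rap and 5535 bases for Il1rn, so genes with long rarely used exons are placed too low.

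Ratios of 2 genes within a library do not depend on how libraries are scaled. They are ratios of reads, not divided by exon length, so they do not order the 2 genes by level. The antagonist Il1rn had 6.36, 5.67 and 5.68 reads per read of Il1b in the libraries labelled MHC-IIhigh and 1.72, 1.28 and 1.89 in those labelled MHC-IIlow. Every library labelled MHC-IIhigh had a ratio above that of every library labelled MHC-IIlow, and the mean log2 ratio was 2.56 ± 0.10 with the high label and 0.69 ± 0.29 with the low label (SD, n = 3 each), a difference of 1.87. Per kilobase of exons, Il1rn stood above Il1b with the high label, at 48.3, 49.8 and 65.2 against 22.0, 25.5 and 33.3 CPM. With the low label it stood below Il1b, at 44.7, 44.6 and 47.3 against 75.4, 101 and 72.6 CPM. Against the other ligand, Il1rn had 14.7, 14.1 and 11.2 reads per read of Il1a with the high label and 6.63, 6.33 and 8.69 with the low label, a difference of 0.89 on the log2 scale.

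The decoy receptor Il1r2 had 0.182, 0.116 and 0.906 reads per read of Il1r1 in the libraries labelled MHC-IIhigh and 1.536, 1.497 and 13.6 in those labelled MHC-IIlow. The labels did not overlap. Per kilobase of exons, Il1r2 stood at 1.34, 1.19 and 2.70 CPM with the high label and 13.9, 26.3 and 24.2 CPM with the low label, and Il1r1 at 2.21, 3.07 and 0.893 CPM with the high label and 2.70, 5.26 and 0.533 CPM with the low label. On that scale the decoy was the lower of the pair in replicates 1 and 2 labelled MHC-IIhigh and the higher in the other 4 libraries. The difference of the mean log2 ratio was -3.56, with SDs of 1.56 with the high label and 1.83 with the low label. It was -4.44 to -2.50 when a library was left out, with batch 3 giving the highest ratio of each label.

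Il18bp had 0.421, 0.562 and 0.430 reads per read of Il18 with the high label and 1.27, 0.85 and 1.73 with the low label, a log2 difference of -1.40. Per kilobase of exons Il18bp was the lower of the pair in every library. It stood at 1.18 to 1.38 against 6.91 to 9.43 CPM with the high label and 1.61 to 2.24 against 3.81 to 5.55 CPM with the low label. Il1b had 2.32, 2.48 and 1.97 reads per read of Il1a with the high label and 3.86, 4.95 and 4.59 with the low label, a log2 difference of -0.98. Il1b had 4.97, 6.83 and 6.53 reads per read of Il18 with the high label and 30.0, 33.7 and 35.3 with the low label, a log2 difference of -2.44. The labels did not overlap in any of the 6 ratios. Every ratio holds Il1b, Il1r2, Il1rn, Il18 or Il18bp, whose own levels did not overlap, so the 6 are not separate results. Among single tested genes 19.9% did not overlap, and the share among other gene pairs was not computed. The two-sided exact permutation p was 0.1 for each of the 6 ratios and 0.1 after adjustment over them, which is the smallest that 3 against 3 libraries allow.

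**Figure D4:**
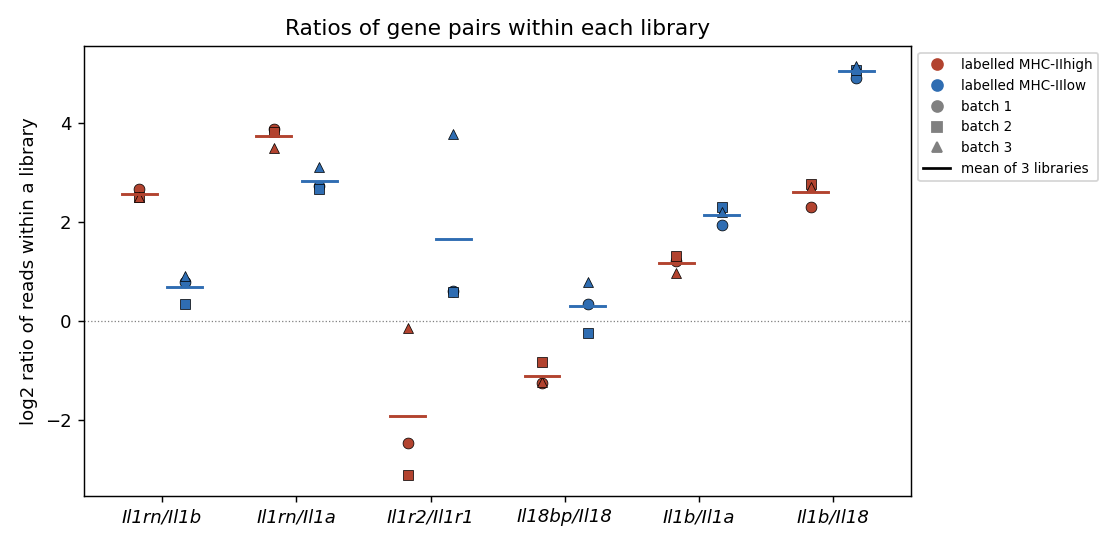
Log2 ratio of the reads of 2 genes within each library, with the libraries labelled MHC-IIhigh in red on the left and those labelled MHC-IIlow in blue on the right of each pair, symbols for the batch and a line at the mean. Il1rn/Il1b lies at 2.50 to 2.67 in the libraries labelled MHC-IIhigh and at 0.35 to 0.92 in those labelled MHC-IIlow.

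Other genes of the pathway were read from fixed lists, and by edgeR 0 of them were called in either direction. Of 13 other ligands and receptors of the IL-1 family 5 were tested, with a median log2 fold change of -0.47, 0 at an unadjusted p under 0.05, and 0 called by DESeq2 and by limma-voom with sample quality weights. Sigirr, an inhibitory member of the receptor family, stood at 1.08 ± 0.62 CPM with the high label and 1.84 ± 0.64 CPM with the low label (SD, n = 3 each). Il33, named after its values were seen, stood at 7.74, 9.85 and 3.86 CPM with the high label and at 9.005, 14.6 and 0.892 CPM with the low label, so that batch 3 was again lowest. Il36rn, Il1f10 and Il1rapl2 had 0 reads in all libraries.

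Of 21 further inflammasome and pyroptosis genes 20 were tested, with a median log2 fold change of 0.07, 12 positive and 8 negative. Panx1, a channel that releases ATP from cells, had the smallest p among them, at 5.29, 6.50 and 5.08 CPM in the libraries labelled MHC-IIhigh and 11.6, 9.48 and 11.2 CPM in those labelled MHC-IIlow. The labels did not overlap, and the log2 fold change was -0.93 with an SE of 0.23 and an edgeR adjusted p of 0.184, against 0.0168 by DESeq2 and 0.0292 by edgeR with the GC offset. Without labelled MHC-IIlow replicate 2 the edgeR adjusted p was 0.0477, in a fit that called 246 higher and 784 lower over all genes. Without labelled MHC-IIlow replicate 3 it was 0.213 and with the batch block 0.381, both by edgeR. Nek7, a kinase that binds NLRP3, stood at 112 ± 11 CPM with the high label and 77.6 ± 24.8 CPM with the low label (SD, n = 3 each; adjusted p 0.428 by edgeR). Aim2, a sensor of cytosolic DNA, stood at 46.2 ± 4.4 CPM with the high label and 37.5 ± 10.1 CPM with the low label, and Naip1, a sensor of bacterial proteins with close paralogs that can share reads, at 3.51 ± 1.03 CPM with the high label and 5.01 ± 1.19 CPM with the low label. In this list edgeR gave 1 gene lower at an unadjusted p under 0.05, DESeq2 called 1 lower, and limma-voom with sample quality weights called 4 higher and 3 lower. The summed level of the list was 1136 to 1167 CPM with the high label and 1050 to 1138 CPM with the low label.

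Of 18 genes of IL-1 receptor signalling all 18 were tested, with a median log2 fold change of 0.08. Myd88, the adaptor that carries the signal from the receptor, stood at 18.5, 20.0 and 18.4 CPM in the libraries labelled MHC-IIhigh and at 33.4, 23.9 and 45.0 CPM in those labelled MHC-IIlow. All libraries labelled MHC-IIhigh lay below the others, and the log2 fold change was -0.84 with an SE of 0.25 and an edgeR adjusted p of 0.275. Without labelled MHC-IIlow replicate 2 that p was 0.0301, in a fit that called 246 higher and 784 lower over all genes. Without labelled MHC-IIlow replicate 3 it was 0.367 and with the batch block 0.489, both by edgeR. Irak3, a kinase-like brake on the pathway, stood at 55.1 ± 8.8 CPM with the high label and 43.3 ± 6.4 CPM with the low label, and Irak1, a kinase recruited by MyD88, at 73.3 ± 7.0 CPM with the high label and 88.6 ± 11.4 CPM with the low label. Map3k7, which encodes the kinase TAK1, stood at 63.3 ± 6.2 CPM with the high label and 49.2 ± 10.5 CPM with the low label (SD, n = 3 each). In this list edgeR gave 1 gene lower at an unadjusted p under 0.05, DESeq2 called 0, and limma-voom with sample quality weights called 1 higher and 3 lower.

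Of 16 genes that IL-1 is known to induce 12 were tested, with a median log2 fold change of -0.01. Il6, the cytokine interleukin 6, was low, with 26 reads in total with the high label and 113 with the low label, or 0.557, 0.357 and 0.286 CPM with the high label and 3.52, 1.76 and 0.713 CPM with the low label. The labels did not overlap, and the log2 fold change was -2.42 with an SE of 0.58 and an edgeR adjusted p of 0.176, against 0.0125 by DESeq2. Without labelled MHC-IIlow replicate 2 the edgeR adjusted p was 0.0477 for Il6, in a fit that called 246 higher and 784 lower over all genes. Without labelled MHC-IIlow replicate 3 it was 0.0723 and with the batch block 0.191, both by edgeR. Ptgs2, the inducible enzyme of prostaglandin synthesis, stood at 52.5, 73.7 and 88.5 CPM with the high label and at 107, 142 and 67.6 CPM with the low label, and overlapped through batch 3. Its log2 fold change was -0.56 with an edgeR adjusted p of 0.451, and -0.85 with 0.0152 by edgeR with the GC offset. Icam1, an adhesion molecule, stood at 50.9 ± 7.6 CPM with the high label and 70.5 ± 20.7 CPM with the low label, and Zc3h12a, an RNase that degrades cytokine mRNAs, at 26.8 ± 9.5 CPM with the high label and 50.3 ± 33.0 CPM with the low label (SD, n = 3 each). Zc3h12a had an edgeR adjusted p of 0.456, or 0.0483 without labelled MHC-IIlow replicate 2. It was 0.8825 without labelled MHC-IIlow replicate 3 and 0.583 with the batch block, both by edgeR. In this list edgeR gave 1 gene lower at an unadjusted p under 0.05, DESeq2 called 1 lower and limma-voom with sample quality weights 6 lower.

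The genes whose levels were most like those of Il1b and Il1r2 over the 6 libraries were found by Pearson correlation of log2(CPM + 0.5) among 9251 other coding genes that reached 5 CPM in either label. For Il1b they were Ctsh, a lysosomal cathepsin (r = 0.998), Utp14b (0.990) and Gpr171 (0.989). For Il1r2 they were Slc9a7, a sodium-proton exchanger (r = 0.994), Ctsh (0.988) and I830077J02Rik (0.988). The libraries share their labels, depth and trend over GC content, so these values describe likeness over 6 points only.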

How the data were processed

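Each library came as a deposited table of unnormalized counts for Ensembl genes. Per the submitters' processing notes, FastQC, Trimmomatic, STAR, HTSeq and DESeq2 were used with the GRCm38 build; no version, strand setting or annotation release was stated in what was used here. Per the labels' protocols, libraries were stranded and built from RNA after rRNA depletion. Reads in no feature (35.2% to 49.4% of the listed reads), ambiguous reads (0.324% to 0.864%) and multimapped reads (7.6% to 17.4%) stayed out of library sizes and tests. Symbols and coordinates came from GENCODE M21 (55227 of 55487 genes matched), and promoter windows from RefSeq (GRCm38.p6), where all 10 members had an entry.

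The fit used edgeR 4.0.16 (R 4.3.3), with a filterByExpr filter, TMM scaling, and a quasi-likelihood F test with label as the only term, adjusted over 14140 genes. CPM are counts over TMM-scaled library sizes. The GC offset removed each library's local-regression trend (span 0.4) of log2 CPM over transcript GC content. A smaller library has larger counting error, and intervals cover the spread between libraries. Alternatives used DESeq2 1.42.0, limma 3.58.1, other factors and filters, the batch block, and each library left out. The labels make the replicate number a batch, which pairs the libraries; deviations of same-batch libraries from their label means correlated over genes at 0.159, 0.335 and -0.116. All 10 members are named; from each list, genes called and up to 4 of lowest p that reach 1 CPM may be. Members, lists and motifs were chosen with earlier results of these data known.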

Additional observations from a re-analysis of the deposited data

How the results depend on the processing

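Il1b was negative in all 15 alternatives and past the threshold in 10, and Il1r2 negative in 15 and past it in 13. The block of batch pairs gave Il1b -1.63 (adjusted p 0.0742 by edgeR), 1 of the 10 genes lower, and 1 gene higher among all; it changed no other call of the 10. When a library was left out, Il1b ranged over -1.80 to -1.43 and Il1r2 over -4.08 to -3.37, with 0 to 2 of the 10 genes lower, and over all genes 0 to 246 higher and 8 to 784 lower. The largest counts came without labelled MHC-IIlow replicate 2, where Il1r1 was 0.28, the opposite sign. In these fits 0 to 1 of the inflammasome list, 0 to 1 of the signalling list and 0 to 2 of the IL-1 responsive list were lower. With the GC offset Il1a was -0.92, past the threshold, Il1rn was -0.085, the opposite sign, and 135 genes were higher and 246 lower. With the GC offset and the replicate block these were -0.96, -0.054, 200 and 391, with 1 inflammasome gene (Panx1) and 2 IL-1 responsive genes (Il6 and Ptgs2) lower. DESeq2 called 121 higher and 277 lower, and no filter on low counts 113 and 436. limma-voom with sample quality weights called 2883 higher and 3207 lower, 3 and 5 of the 10 genes, and moved Il1a (-0.81), Il18 (0.68), Il18bp (-0.60), Il1rap (0.51), Nlrp3 (-0.78) and Casp1 (0.60) past the threshold. The causes of these shifts were not tested. RLE factors, a filter of 1 CPM in 3 libraries, and removal of rRNA and mitochondrial genes changed no call of the 10. The 6 ratios kept their sign in all 7 alternatives. The fewest reads of a member in a library were 19 (Il1r1) and 22 (Il18), both in labelled MHC-IIlow replicate 3.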
